A study of Mus musculus with 12 samples.

Results

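Imprinted genes were examined as a set of 34 genes in sorted mouse intra-aortic haematopoietic cluster cells. The members were chosen by name, with earlier results of these data known, as genes expressed mainly from the allele of one parent in at least some mouse tissues. Each was found by its symbol in the authors' gene tables. All 34 had exactly 1 of the 24138 rows. In 3 of these rows the name was joined to others (Mirg with Mir369 and Mir412, Plagl1 with Hymai, Snrpn with Snurf), so those values cover the joined genes. Intra-aortic clusters are small groups of blood-forming cells that bud from the wall of the embryonic aorta in the aorta-gonad-mesonephros region (AGM). The cells were sorted from the AGM of C57BL/6 embryos for CD31 (Pecam1, an endothelial surface protein) and CD117 (the receptor Kit), and against SSEA-1, a carbohydrate found on germ cells among others. The 12 samples formed 4 groups of 3, namely E10.5 G1, E10.5 S/G2/M, E11.5 G1 and E11.5 S/G2/M. G1 cells came from Fucci Red embryos, which carry the mKO2 cell cycle reporter, and S/G2/M cells from Fucci Green embryos, which carry the mAG reporter. Cell cycle phase and reporter strain therefore cannot be told apart. The labels name no treatment and no deleted gene in any group. They leave unstated whether a group's samples were separate litters or pools, so the authors' p-values may measure technical spread only.

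Many imprinted genes are governed by a methylation mark laid down in the egg or the sperm, and the mark decides which parental copy is read in the embryo. Imprinted genes lie in domains, in which a few differentially methylated regions and long noncoding RNAs set the activity of neighbouring genes. Many of them act on growth: Igf2 is a growth factor, Igf2r removes it from the cell surface, Grb10 dampens signalling from insulin and IGF receptors, and the H19-Igf2 and Dlk1-Dio3 domains are known for their part in the upkeep of adult blood stem cells.

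The authors deposited 1 value in FPKM (fragments per length of gene and per depth of library) per gene and group, so levels of different genes are compared per length. No value per sample and no read total was given, so no SD is printed, the depth is unknown, and the spread between samples enters only through the authors' own test. Each group appears in 3 tables, whose values for it differed slightly. Over 114 values of at least 1 FPKM, the highest of a group's 3 values exceeded the lowest by 1.04-fold in the median and by at most 1.10-fold (Kcnq1ot1 in E11.5 S/G2/M). A difference was called where the authors' q-value, a p-value adjusted over all genes that they tested, was under 0.05. In bulk samples, fewer cells that express a gene and less RNA per cell cannot be told apart.

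The imprinted genes spanned almost the full range of expression in these cells. The growth factor Igf2 was the most abundant member in every group, with 1097 FPKM in E10.5 G1, 1026 FPKM in E10.5 S/G2/M, 1336 FPKM in E11.5 G1 and 1045 FPKM in E11.5 S/G2/M. It ranked between 63 and 104 among all 24138 genes. Gnas, which encodes the stimulatory G protein alpha subunit from its main transcript, had 942, 816, 1217 and 1018 FPKM in the same order of groups. Mest, a hydrolase of mesodermal tissue, had 797, 805, 843 and 705 FPKM. The deposited locus of Mest, chr6:30733506-30896794, is wider than the annotated gene and overlaps Copg2 on the other strand. Copg2 was listed at 169.7, 173, 181 and 148 FPKM in the same order. Whether reads were assigned by strand is not known, so the value of Mest may include reads of Copg2. H19, the maternally expressed noncoding RNA next to Igf2, had 718, 557, 792 and 558 FPKM. Beside these 4 genes, the membrane proteolipid Nnat completed the 5 highest members in 3 groups, and the retrotransposon-derived Peg10 in E11.5 S/G2/M. The 5 highest members held 79.3% of the summed FPKM of all 34 in E10.5 G1, 77.6% in E10.5 S/G2/M, 85.5% in E11.5 G1 and 84.6% in E11.5 S/G2/M. The sums themselves were 5184, 4632, 5148 and 4120.3 FPKM. The level of the set as a whole was thus carried by a few genes.

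**Figure D1:**
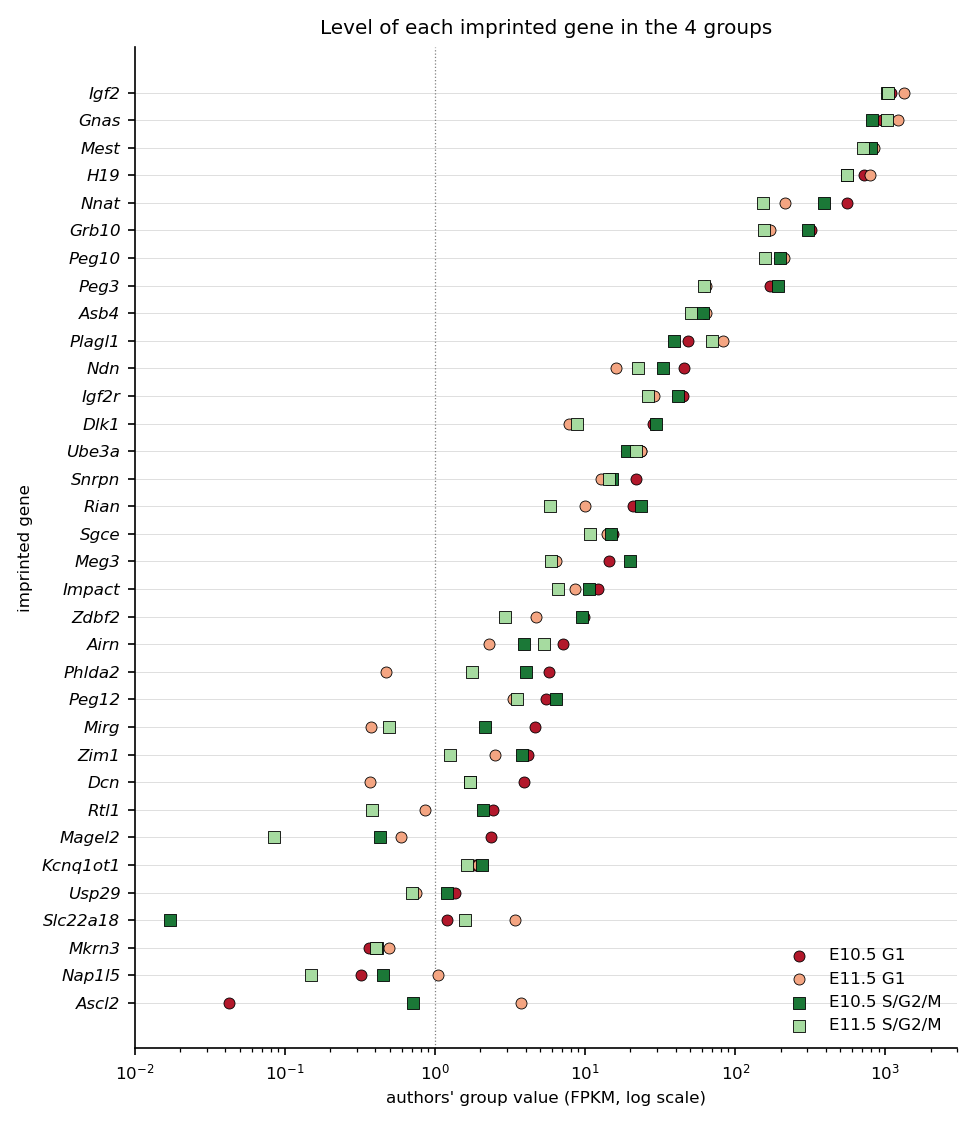
Authors' group value of each of the 34 imprinted genes in FPKM on a log axis, in order of its value in E10.5 G1. Circles are G1 and squares S/G2/M, dark at E10.5 and light at E11.5, each marker is 1 group value with no error, the dotted line marks 1 FPKM, and Ascl2 in E11.5 S/G2/M is listed at 0 and not drawn. Igf2, Gnas, Mest and H19 lie furthest to the right in all 4 groups, and the light markers of Peg3, Dlk1, Nnat and Zdbf2 lie to the left of the dark ones.

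At the low end, 31 members reached 1 FPKM in E10.5 G1, 29 in E10.5 S/G2/M, and 27 in each E11.5 group. At least 5 FPKM was reached by 23 and 21 members at E10.5 and by 19 and 20 at E11.5, with G1 given first. The 10 members that stayed under 5 FPKM in every group and were not called anywhere were Mirg, Zim1, Dcn, Rtl1, Magel2, Kcnq1ot1, Usp29, Slc22a18, Mkrn3 and Nap1l5. In the tables by age, from which levels are given except where the phases are compared, their values lay between 0.0171 FPKM (Slc22a18 in E10.5 S/G2/M) and 4.59 FPKM (Mirg in E10.5 G1). Mkrn3 and Nap1l5 were not tested by the authors in any comparison. Among them are the matrix proteoglycan Dcn and the transporter Slc22a18, and no difference of these 10 passed the test in any comparison.

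The first comparison asked how the cells of E11.5 embryos differed from those of E10.5 embryos within G1. Peg3, Dlk1 and Nnat fell with age, and no member rose. The authors tested 32 of the 34 members here, of which 22 were lower and 10 higher at E11.5. Called members made up 9.38% of those tested, all lower. Of all 12953 genes tested, 4.45% were called in either direction and 1.45% lower, so most calls among all genes ran upward and the 3 calls among members all ran downward. Before adjustment, 8 members (25.0%) had p under 0.05 in the authors' deposited table, beside 15.4% of all genes. The median log2 fold change was -0.75 over the 32 members and 0.02 over all genes above 0 in both groups.

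The second comparison asked the same within S/G2/M, with samples that the G1 comparison did not use. There, 6 members fell, namely Peg3, Dlk1, Nnat, Zdbf2, Rian and Grb10, and no member rose. The authors tested 30 members, of which 23 were lower and 7 higher at E11.5. The 6 called members were 20.0% of those tested, beside 4.07% of all 12768 genes in either direction and 1.93% lower. Before adjustment, p was under 0.05 for 10 members (33.3%) in the authors' deposited table, beside 13.9% of all genes. The median log2 fold change was -0.61 over the members and 0.03 over all genes. A gene could enter the authors' test through reads in one group alone, so the tested members are not all members. The members were also chosen with earlier results of these data known, so these shares and medians only describe them.

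The 3 members called in G1 were also called in S/G2/M, which is all 3 of the G1 calls and 3 of the 6 S/G2/M calls. Of all 12190 genes tested in both phases, 89 (0.730%) were called lower in both. Over all genes, 188 were called lower with age among G1 cells and 247 among S/G2/M cells. The overlap of the member calls therefore has 89 of 188 and 89 of 247 as its counterparts, and not 0.730%. Whether members shared calls more often than other genes was not tested. Direction was shared more widely than calls. Of 30 members tested in both phases, 19 (63.3%) were lower at E11.5 in both, compared with 31.9% of all genes. Another 5 were higher in both (H19, Igf2, Plagl1, Gnas and Slc22a18), and 6 differed in direction between the phases (Airn, Mest, Peg10, Asb4, Ube3a and Kcnq1ot1). Whether the difference with age itself differed between G1 and S/G2/M could not be tested from group values.

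**Figure D2:**
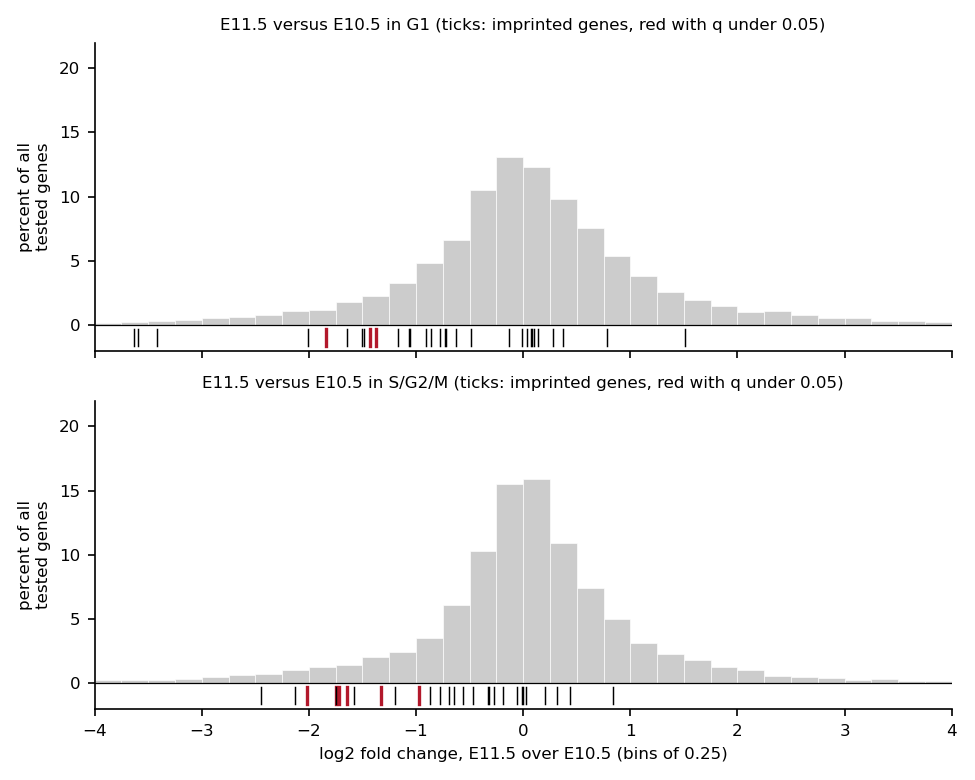
Distribution of the log2 fold change of E11.5 over E10.5 in G1 (upper) and S/G2/M (lower), as percent of the tested genes above 0 in both groups, in bins of 0.25. Each tick under the axis is 1 tested imprinted gene, red where the authors' q was under 0.05, and Ascl2 in G1 (6.47) and Slc22a18 in S/G2/M (6.52) lie beyond the axis. The grey bars are centred near 0, and all 9 red ticks lie left of 0.

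Markers of other cell types also differed with age in these samples. The sum of 20 mesenchymal markers was 293 FPKM in E10.5 G1 and 123 FPKM in E11.5 G1, with 18 of 20 lower and 4 called. In S/G2/M this sum went from 285 to 102 FPKM, with 19 of 19 tested lower and 6 called. Pdgfra, a receptor of mesenchymal cells, had log2 fold changes of -1.67 in G1 and -3.17 in S/G2/M (q = 0.0290 and 0.00308 in the authors' deposited tables). The sum of 15 neuronal markers was 603 FPKM in E10.5 G1 and 224 FPKM in E11.5 G1, with 14 of 15 lower and 4 called, while in S/G2/M it was 157 and 142 FPKM with none called. Macrophage markers moved the other way, from 345 to 2543 FPKM in G1 with 12 of 13 tested called higher, and from 211 to 755 FPKM in S/G2/M with 8 of 12 called higher. The 9 erythroid markers found summed to 19383 FPKM in E10.5 S/G2/M and 3209.9 FPKM in E11.5 S/G2/M, with 8 of 9 lower and 2 called, while in G1 their sum was 14265 FPKM at E10.5 and 11916 FPKM a day later, with 4 of 9 lower and none called. Hbb-bh1, an embryonic globin, fell 10.9-fold in S/G2/M (q = 0.00308 in the authors' deposited table). No mesenchymal, neuronal or erythroid marker was at 0 in any group, and of the macrophage markers Cd163 was listed at 0 in all groups but E11.5 G1. The part of these cell types in the lower values of the imprinted genes was not tested.

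The sorted population carried its own markers in every group. Kit had 14.4 FPKM in E10.5 G1, 12.6 FPKM in E10.5 S/G2/M, 17.1 FPKM in E11.5 G1 and 30.0 FPKM in E11.5 S/G2/M, and Pecam1 had 38.1, 29.7, 113 and 73.2 FPKM. No marker of the 14 for clusters and blood progenitors or of the 12 for endothelium was at 0. The sums for clusters and progenitors were 197 (G1) and 220.1 (S/G2/M) FPKM at E10.5, and 447 and 544 FPKM at E11.5. With age, 3 of 13 tested were called higher in G1 and 6 of 14 in S/G2/M, Kit among the latter. Endothelial markers summed to 531 and 945 FPKM in G1, with 1 of 12 called higher, and to 399 and 790.2 FPKM in S/G2/M, with 3 of 12. Pecam1 was called higher in both phases (q = 0.00861 and 0.00971 in the authors' deposited tables). No marker of these 2 lists was called lower with age. Hepatic markers summed to at most 51.6 FPKM, with Alb (albumin) listed at 0 in 3 of the 4 groups, and germ cell markers to at most 19.2 FPKM. Most of the highest hepatic sum was Trf, which was called higher with age in G1, from 8.14 to 45.1 FPKM (q = 0.0146 in the authors' deposited table). The fraction of each cell type was not measured.

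**Figure D3:**
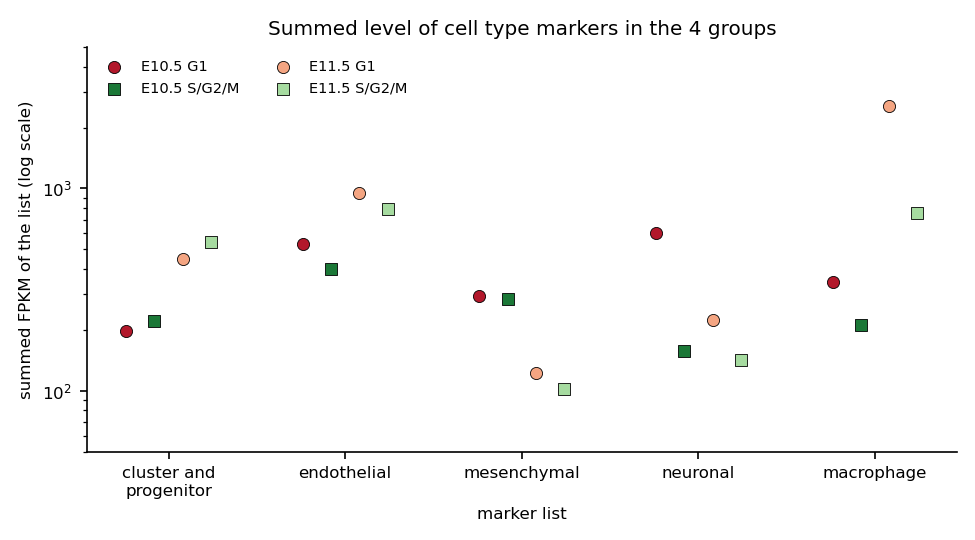
Summed FPKM of 5 lists of cell type markers in the 4 groups, on a log axis, with each marker 1 group value. Mesenchymal sums are lower at E11.5 in both phases, the neuronal sum is highest in E10.5 G1 (603 FPKM), and the macrophage sum is highest in E11.5 G1 (2543 FPKM).

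Peg3, a paternally expressed zinc finger transcription factor, fell with age in both phases. It had 171 FPKM in E10.5 G1 and 192 FPKM in E10.5 S/G2/M, and 63.4 and 61.6 FPKM in the same phases at E11.5. Both E11.5 values were thus under both E10.5 values, and the phases lay close together at each age. The fall was 2.70-fold in G1 (log2 fold change -1.43) and 3.12-fold in S/G2/M (-1.64), with q-values of 0.00273 and 0.00308 in the authors' deposited tables. Its locus is at chr7:6705960-6730419 on the minus strand (mm10). The divergent neighbour Usp29, a paternally expressed ubiquitin protease, starts 164 bases away on the plus strand and had 1.35 FPKM in E10.5 G1, 1.20 FPKM in E10.5 S/G2/M, 0.742 FPKM in E11.5 G1 and 0.698 FPKM in E11.5 S/G2/M. Zim1, a maternally expressed zinc finger gene on the other side of Peg3, had 4.13, 3.79, 2.49 and 1.26 FPKM. The q-values of Usp29 and Zim1 lay between 0.209 and 0.755 in the authors' deposited tables, so these values were lower at E11.5 without passing the test. The 3 genes of this domain were lower at E11.5 in both phases.

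In the Dlk1-Dio3 domain on chromosome 12, the members were lower at E11.5, with Dlk1 called in both phases and Rian in S/G2/M. The domain holds paternally expressed protein genes and, on the maternal copy, a run of noncoding RNAs that host small RNAs. All 5 of its members were lower at E11.5 in both phases. Dlk1, a membrane protein related to Notch ligands, had 28.1 FPKM in E10.5 G1 and 29.4 FPKM in E10.5 S/G2/M, and 7.84 and 8.78 FPKM at E11.5. It fell 3.59-fold in G1 and 3.35-fold in S/G2/M (log2 fold changes -1.84 and -1.75), with q-values of 0.00861 and 0.00548 in the authors' deposited tables. Within an age, S/G2/M exceeded G1 by 0.01 at E10.5 and 0.12 at E11.5 on the log2 scale. The locus of Dlk1 is chr12:109452823-109463336 on the plus strand, and no gene on the other strand overlaps it in the annotation.

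Among the maternal noncoding RNAs, Rian had 20.8 FPKM in E10.5 G1, 23.6 FPKM in E10.5 S/G2/M, 9.91 FPKM in E11.5 G1 and 5.80 FPKM in E11.5 S/G2/M. Rian, which hosts small nucleolar RNAs and microRNAs, fell 4.06-fold in S/G2/M (q = 0.00548 in the authors' deposited table). In G1 it was 2.10-fold lower and did not pass (q = 0.197 in the authors' deposited table). Meg3 had 14.4, 19.9, 6.40 and 5.95 FPKM in the same order, and neither difference with age passed (q = 0.513 in G1 and 0.161 in S/G2/M, from the authors' deposited tables). The other noncoding RNA, Mirg, and Rtl1, a retrotransposon-derived protein gene, were at or under 4.59 FPKM and did not pass. The log2 fold changes of the 5 genes ran from -3.63 to -1.07 in G1 and from -2.45 to -1.75 in S/G2/M.

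These noncoding transcripts carry microRNA hairpins, of which the RefSeq annotation places 1 in the Meg3 locus, 3 in Rian and 10 in Mirg, while Rtl1 holds 7, of which 6 lie on the strand opposite to it. The mature microRNAs of the called gene Rian are shown 5′ to 3′ from RefSeq (GRCm38.p6) with the seed, bases 2 to 8, in capitals, because the level of their host transcript fell. No seed is shared among them. The values above are levels of the host gene, and no microRNA was measured.
mmu-miR-341-5p: cGGUCGGCcgaucgcucgguc
mmu-miR-341-3p: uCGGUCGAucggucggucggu
mmu-miR-1188-5p: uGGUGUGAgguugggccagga
mmu-miR-1188-3p: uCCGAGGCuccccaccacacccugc
mmu-miR-370-5p: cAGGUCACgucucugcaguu
mmu-miR-370-3p: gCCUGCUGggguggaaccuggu

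Nnat (neuronatin), a small membrane protein expressed from the paternal copy, fell with age in both phases. It had 556 FPKM in E10.5 G1, 388 FPKM in E10.5 S/G2/M, 215 FPKM in E11.5 G1 and 154 FPKM in E11.5 S/G2/M. Both E11.5 values were under both E10.5 values. The fall with age was 2.59-fold in G1 and 2.51-fold in S/G2/M, with q-values of 0.0103 and 0.00971 in the authors' deposited tables. The deposited locus, chr2:157556362-157566361, is wider than the annotated gene and overlaps Blcap, a gene on the other strand. No source used here says whether reads were assigned by strand, so a share of this value may belong to Blcap. Blcap itself was listed at 8.77 FPKM in E10.5 G1, 8.58 FPKM in E10.5 S/G2/M, 7.29 FPKM in E11.5 G1 and 3.86 FPKM in E11.5 S/G2/M. Its part in the value of Nnat was not tested.

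Zdbf2, a paternally expressed gene of a zinc finger protein on chromosome 1, had 9.82 FPKM in E10.5 G1 and 9.58 FPKM in E10.5 S/G2/M. The E11.5 values were 4.71 (G1) and 2.90 (S/G2/M) FPKM, under both E10.5 values. It fell 3.30-fold in S/G2/M (q = 0.00308 in the authors' deposited table). The 2.09-fold lower value in G1 did not pass (q = 0.124 in the authors' deposited table). The deposited locus chr1:63182571-63314575 starts upstream of the annotated gene and includes an upstream RefSeq transcript start.

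Grb10, an adaptor that binds insulin and IGF receptors and is expressed from the maternal copy in most tissues, had 317 FPKM in E10.5 G1, 306 FPKM in E10.5 S/G2/M, 169 FPKM in E11.5 G1 and 156 FPKM in E11.5 S/G2/M. The 2 phases differed by little at each age. The fall passed in S/G2/M, where it was 1.96-fold (q = 0.0471 in the authors' deposited table), and the 1.88-fold lower value in G1 did not (q = 0.135 in the authors' deposited table). Grb10 is at chr11:11930499-12037420 on the minus strand.

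Sequences upstream of the 6 members that fell are shown to compare their CpG content, since promoters of imprinted genes are often CpG islands and their methylation marks sit on CG pairs. Each is 250 bases immediately upstream of a RefSeq transcript start (GRCm38.p6), read 5′ to 3′ on the strand of the gene, with every CG in capitals. Peg3 is from chr7:6730420-6730669 (minus strand), Dlk1 from chr12:109452573-109452822 (plus), Rian from chr12:109603695-109603944 (plus), Nnat from chr2:157559828-157560077 (plus), Zdbf2 from chr1:63200108-63200357 (plus) and Grb10 from chr11:12037421-12037670 (minus).
Peg3: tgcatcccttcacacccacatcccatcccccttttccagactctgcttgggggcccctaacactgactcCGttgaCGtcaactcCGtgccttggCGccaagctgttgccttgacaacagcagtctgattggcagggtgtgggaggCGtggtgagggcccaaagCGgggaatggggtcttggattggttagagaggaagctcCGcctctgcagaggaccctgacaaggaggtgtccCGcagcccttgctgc
Dlk1: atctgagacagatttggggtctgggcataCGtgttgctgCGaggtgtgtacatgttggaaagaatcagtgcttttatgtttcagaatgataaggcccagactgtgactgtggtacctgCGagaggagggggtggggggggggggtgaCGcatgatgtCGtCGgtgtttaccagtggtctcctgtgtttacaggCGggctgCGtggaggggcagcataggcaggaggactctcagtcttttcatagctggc
Rian: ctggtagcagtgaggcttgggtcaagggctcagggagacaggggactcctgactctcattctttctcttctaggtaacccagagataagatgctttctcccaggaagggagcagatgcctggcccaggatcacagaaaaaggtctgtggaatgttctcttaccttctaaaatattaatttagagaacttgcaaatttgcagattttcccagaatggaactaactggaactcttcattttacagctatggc
Nnat: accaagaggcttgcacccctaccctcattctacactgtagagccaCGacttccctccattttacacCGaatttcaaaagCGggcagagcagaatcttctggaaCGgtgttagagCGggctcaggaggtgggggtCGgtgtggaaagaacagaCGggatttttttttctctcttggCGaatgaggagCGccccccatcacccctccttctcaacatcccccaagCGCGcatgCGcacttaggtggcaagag
Zdbf2: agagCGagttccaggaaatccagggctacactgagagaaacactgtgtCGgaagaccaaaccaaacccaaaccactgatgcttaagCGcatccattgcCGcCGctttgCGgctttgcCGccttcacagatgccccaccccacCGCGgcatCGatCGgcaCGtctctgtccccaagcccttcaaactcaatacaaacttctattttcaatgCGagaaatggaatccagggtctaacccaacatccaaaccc
Grb10: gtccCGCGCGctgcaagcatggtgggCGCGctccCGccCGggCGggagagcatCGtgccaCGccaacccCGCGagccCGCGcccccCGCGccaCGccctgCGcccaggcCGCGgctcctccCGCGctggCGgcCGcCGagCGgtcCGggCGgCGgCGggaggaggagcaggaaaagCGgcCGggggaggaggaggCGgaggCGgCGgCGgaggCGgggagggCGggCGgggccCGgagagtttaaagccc

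These 6 windows ranged from no CG pair in Rian to 40 in Grb10. Peg3 and Dlk1 held 8 each, Nnat 12 and Zdbf2 13. Where RefSeq gave several starts, the one nearest to the 5′ end of the deposited locus is shown. The table holds 1 other window for Grb10, with 8 CG pairs, and 1 other for Zdbf2, with 26, so these counts depend on the start chosen. Windows were found for 28 of the 34 members, 43 windows in all, with a median of 10 CG pairs, compared with 6 over all 32851 windows in the table. At least 1 CG was held by 93.0% of the member windows and 92.1% of all windows. The letters TGCCGC, the core bound by the imprint-protecting zinc finger protein Zfp57, were searched on both strands. They were present in a window of 6 of the 28 members (21.4%: Meg3, Mest, Nap1l5, Plagl1, Zdbf2 and Zim1), compared with 9.84% of 27025 genes. These letters hold a CG. Member windows held more CG pairs in the median and members had more windows per gene, and neither was adjusted for. Of the 6 members that fell, Zdbf2 alone held the letters, with 3 matches in the window shown and none in its other window. Such matches are descriptions of these letters and not sites.

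**Figure D4:**
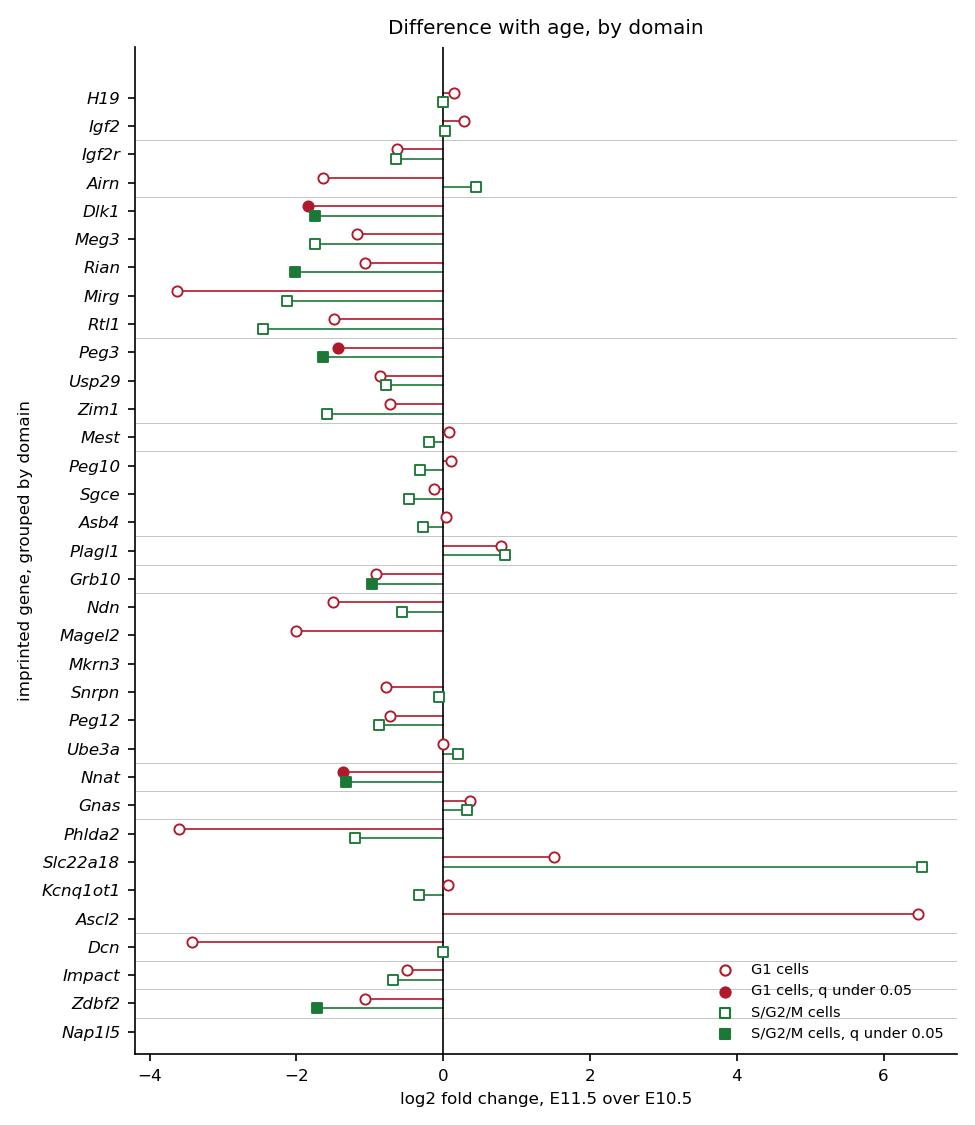
Log2 fold change of E11.5 over E10.5 for each member tested by the authors, grouped by domain between grey lines, with G1 as red circles and S/G2/M as green squares. Filled markers had a q under 0.05 in the authors' tables, and Mkrn3 and Nap1l5 were not tested. Every marker of the 5 genes from Dlk1 to Rtl1 lies left of 0, and H19, Igf2 and Mest lie near 0.

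The neighbours H19 and Igf2 did not pass in either phase. Igf2 was 1.22-fold higher at E11.5 in G1 and 1.02-fold in S/G2/M. H19 was 1.10-fold higher in G1 and had 557 and 558 FPKM in S/G2/M. Both genes had q-values from 0.844 to 0.998 in the authors' deposited tables. A q that misses the threshold does not show that their levels were equal. The receptor Igf2r, which takes up Igf2 for degradation, had 44.6 FPKM in E10.5 G1, 41.2 FPKM in E10.5 S/G2/M, 28.7 FPKM in E11.5 G1 and 26.3 FPKM in E11.5 S/G2/M. Both E11.5 values were lower, by 1.55-fold and 1.57-fold, and neither passed (q = 0.356 and 0.319 in the authors' deposited tables). Airn, the paternal noncoding RNA that silences Igf2r in some tissues, is listed with the same deposited locus as Igf2r, chr17:12682406-12868143, on the opposite strand. It had 7.07, 3.93, 2.28 and 5.35 FPKM in the same order of groups, with no shared direction, and without strand its reads and those of Igf2r cannot be told apart.

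Plagl1 was the member that came nearest to a rise. This zinc finger transcription factor, a cell cycle inhibitor and regulator of other imprinted genes, had 48.4 FPKM in E10.5 G1, 39.0 FPKM in E10.5 S/G2/M, 82.9 FPKM in E11.5 G1 and 69.7 FPKM in E11.5 S/G2/M. Both E11.5 values were above both E10.5 values. The 1.71-fold higher value in G1 had an unadjusted p of 0.0529 and a q of 0.332, and the 1.78-fold higher value in S/G2/M a p of 0.0195 and a q of 0.214, all from the authors' deposited tables. Gnas was 1.29-fold and 1.25-fold higher at E11.5 and did not pass (q = 0.650 and 0.723 in the authors' deposited tables). Its deposited locus spans several transcripts with different imprints and overlaps the antisense Nespas, so the value mixes them.

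The tested genes of the Prader-Willi and Angelman region on chromosome 7 were lower at E11.5 in G1 without a call. Ndn (necdin), a MAGE family protein known as a growth suppressor in neurons and blood stem cells, had 45.2 FPKM in E10.5 G1, 32.9 FPKM in E10.5 S/G2/M, 16.0 FPKM in E11.5 G1 and 22.3 FPKM in E11.5 S/G2/M. It was 2.83-fold lower with age in G1 (q = 0.0855 in the authors' deposited table) and 1.48-fold lower in S/G2/M (q = 0.604 in the authors' deposited table). The splicing protein gene Snrpn had 21.8, 15, 12.7 and 14.4 FPKM, with the highest value in E10.5 G1. Peg12, related to the GSK3-binding FRAT proteins, had 5.46, 6.41, 3.32 and 3.51 FPKM. The ubiquitin ligase Ube3a, which is imprinted in neurons and read from both copies elsewhere, had 23.7, 19.1, 23.5 and 21.9 FPKM. Of the 5 members tested here in G1, all were lower at E11.5, Ube3a by 1.01-fold, with a median log2 fold change of -0.78. In S/G2/M, 3 of 4 tested were lower.

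The Peg10 and Sgce cluster on chromosome 6 and Mest stayed within a small range. Peg10 had 198 FPKM in E10.5 G1, 197 FPKM in E10.5 S/G2/M, 212 FPKM in E11.5 G1 and 158 FPKM in E11.5 S/G2/M. Asb4, a subunit of a ubiquitin ligase, had 61.9, 60.8, 63.8 and 50.3 FPKM, and the sarcoglycan gene Sgce 15.4, 14.9, 14.0 and 10.8 FPKM. All 3 were lowest in E11.5 S/G2/M, and none passed with age, with log2 fold changes from -0.13 to 0.10 in G1 and from -0.47 to -0.27 in S/G2/M. Impact, a regulator of the translation kinase Gcn2, had 12.1, 10.6, 8.58 and 6.59 FPKM and did not pass.

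The 4 members in the Kcnq1 domain on chromosome 7 had at most 5.97 FPKM in any table. Phlda2, a brake on placental growth, had 5.71 FPKM in E10.5 G1, 4.02 FPKM in E10.5 S/G2/M, 0.472 FPKM in E11.5 G1 and 1.75 FPKM in E11.5 S/G2/M, lower at E11.5 in both phases and not called (q = 0.558 and 0.525 in the authors' deposited tables). The noncoding RNA Kcnq1ot1 had between 1.62 and 2.04 FPKM and its deposited locus overlaps Kcnq1 on the opposite strand. Ascl2, a transcription factor of trophoblast and intestinal stem cells, was listed at 0.0420 FPKM in E10.5 G1, 0.714 FPKM in E10.5 S/G2/M, 3.72 FPKM in E11.5 G1 and at 0 in E11.5 S/G2/M. Its large difference with age in G1 did not pass (q = 0.642 in the authors' deposited table).

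Split by the expressed copy, the calls came from both kinds of gene. Gnas, Ube3a and Dcn, whose expressed copy depends on the transcript or the tissue, were left out of both kinds. Of the paternally expressed members, 3 of 18 tested fell with age in G1 (Peg3, Dlk1 and Nnat) and 4 of 17 in S/G2/M (the same genes and Zdbf2). Of the maternally expressed members, none of 11 passed in G1, and 2 of 10 fell in S/G2/M (Rian and Grb10). The medians of the log2 fold changes were -0.82 and -0.73 in G1 and -0.56 and -1.09 in S/G2/M, with the paternal set first. Which parental copy was read was not measured.

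The other pair of comparisons asked how S/G2/M cells differed from G1 cells at each age. These share their groups with the comparisons by age, so only their own values are given. At E10.5, no member was called in the authors' deposited table, where 0.655% of 12984 genes were called in either direction. Of 31 members tested, 25 (80.6%) were lower in S/G2/M, compared with 52.9% of all genes, and the median log2 fold change was -0.22 over the members and -0.04 over all genes. Before adjustment, 2 members had p under 0.05 in the authors' deposited table, Nnat (p = 0.0317) and Magel2 (p = 0.00685), both lower in S/G2/M. For Nnat this table gives 583 FPKM (G1) and 391 FPKM (S/G2/M), and for Magel2, a neighbour of Ndn, 2.50 and 0.430 FPKM. That is 6.45% of the members, beside 6.69% of all genes.

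At E11.5, Ascl2 was the single member called between the phases. The G1 value was 3.65 FPKM, and S/G2/M was listed at 0 (p = 5e-05, q = 0.0102 in the authors' deposited table), which can also be a failed estimate, so no fold is given. Among all 12414 genes tested, 0.701% were called in either direction and 0.564% lower in S/G2/M. The 1 call among 28 tested members was 3.57% of them. Of the tested members, 21 (75.0%) were lower in S/G2/M, beside 54.0% of all genes, with a median of -0.30 over the 27 members above 0 in both groups and -0.06 over all genes. Before adjustment too, p was under 0.05 for no other member in the authors' deposited table.

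Of the genes that fell with age, none was called between phases. At E10.5, Peg3 was 1.07-fold higher in S/G2/M, and at E11.5 it was 1.06-fold lower. Dlk1 was 1.01-fold and 1.09-fold higher in S/G2/M at the same ages, and Grb10 1.08-fold and 1.12-fold lower. Their q-values between phases lay from 0.939 to 0.998 in the authors' deposited tables. Compared with G1 cells, Nnat in S/G2/M was 1.49-fold lower at E10.5 and 1.44-fold lower at E11.5, and it did not pass at either (q = 0.642 and 0.807 in the authors' deposited tables). Rian and Zdbf2 were 1.77-fold and 1.67-fold lower in S/G2/M at E11.5 and within 1.09-fold at E10.5. H19 was lower in S/G2/M by 1.34-fold at E10.5 and 1.46-fold at E11.5. Neuronal markers summed to 630.4 (G1) and 157 (S/G2/M) FPKM at E10.5, with 8 of 15 called lower. Endothelial markers summed to 555 and 405 FPKM at that age, with 12 of 12 lower and 1 called (Gja5, q = 0.0183 in the authors' deposited table). At E11.5, macrophage markers summed to 2513 and 724 FPKM, with 7 of 13 called lower. Erythroid markers summed to 11793 and 3052 FPKM there, with 8 of 9 lower and 2 called (Hba-x and Hbb-bh1), and neuronal markers to 221 and 136 FPKM, with 1 of 15 called. Also at E11.5, the hepatic marker Trf was called lower in S/G2/M and the progenitor marker Hlf higher (q = 0.0242 and 0.0102 in the authors' deposited table). The part of these cell types in the lower values of imprinted genes in S/G2/M was not tested.

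**Figure D5:**
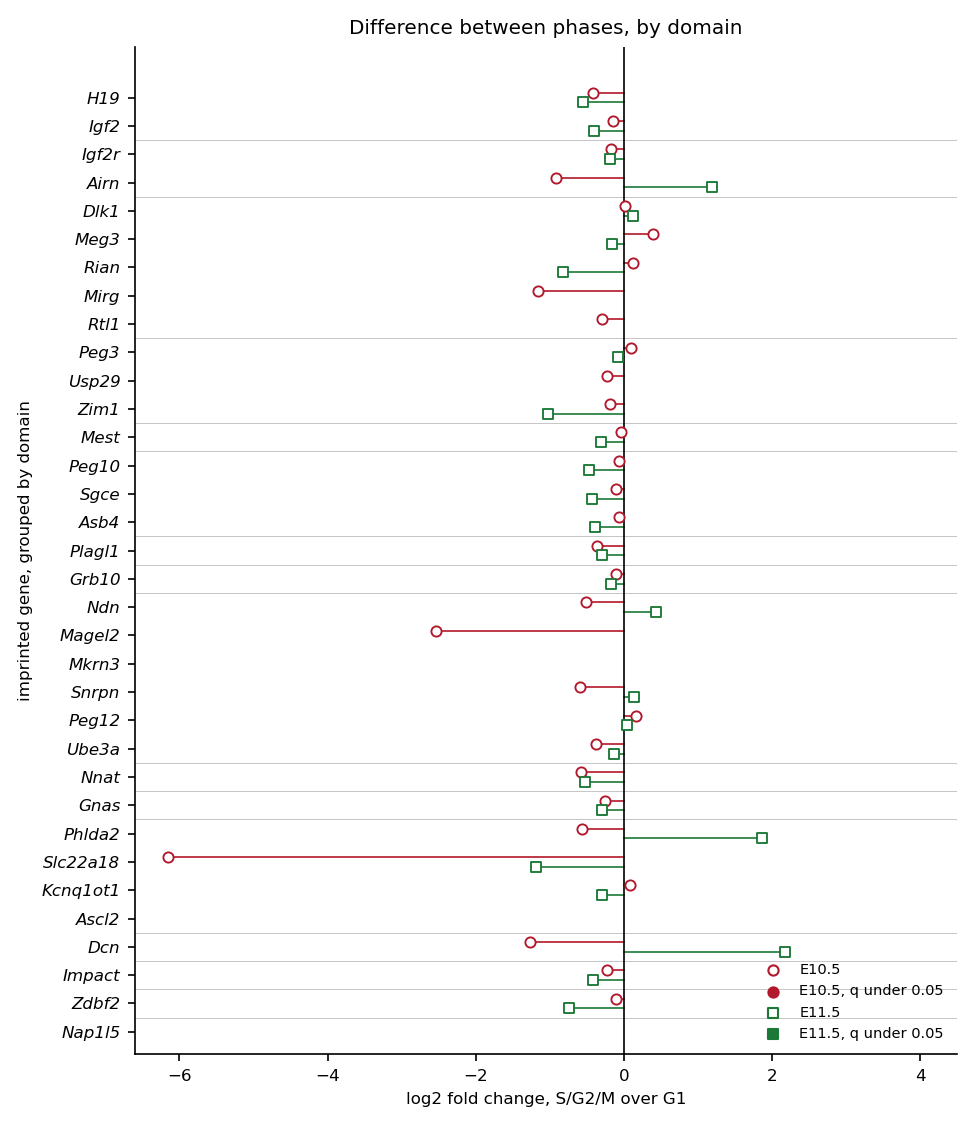
Log2 fold change of S/G2/M over G1 for each member tested by the authors, grouped by domain between grey lines, with E10.5 as red circles and E11.5 as green squares. No marker is filled, as no drawn member had a q under 0.05, and Ascl2 at E11.5 (called, listed at 0 in S/G2/M) cannot be drawn. Of the tested members, 25 lie left of 0 at E10.5.

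A further list of 46 imprinted genes outside the set, of which 45 were found, gave calls in both directions with age. Of those tested, 15 of 33 were lower in G1 and 16 of 31 in S/G2/M. The cell cycle inhibitor Cdkn1c, a maternal gene of the Kcnq1 domain, fell with age in G1 from 336 to 123 FPKM (q = 0.00273 in the authors' deposited table). At E10.5 it was lower in S/G2/M, at 158 FPKM against 352 FPKM in G1 (q = 0.0101 in the authors' deposited table). Pon2, a lactonase, rose with age in G1 from 46.9 to 108 FPKM (q = 0.0462 in the authors' deposited table). In S/G2/M the creatine synthesis enzyme Gatm rose from 2.34 to 12.4 FPKM and the cation transporter Slc22a3 from 1.44 to 21.5 FPKM (q = 0.0395 and 0.0471 in the authors' deposited table). The list gave 1 fall and 1 rise among 33 tested with age in G1 (beside 4.45% of all genes called), and 2 rises among 31 in S/G2/M (beside 4.07%). Between phases it gave 1 fall among 33 at E10.5 (beside 0.655%) and no call among 31 at E11.5 (beside 0.701%), where 2 genes had p under 0.05 before adjustment in the authors' deposited table. Its median log2 fold change with age was 0.05 in G1 and -0.18 in S/G2/M.

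Of 18 factors that keep or set imprints, the de novo methyltransferase Dnmt3b was the single one called. It was 1 of 17 tested with age in S/G2/M (beside 4.07% of all genes called). It was also 1 of 17 tested between phases at E11.5 (beside 0.701%). Trim28, the corepressor recruited by Zfp57, had 106 FPKM in E10.5 G1, 128 FPKM in E10.5 S/G2/M, 96.5 FPKM in E11.5 G1 and 89.3 FPKM in E11.5 S/G2/M. Zfp57 itself had 10.6, 11.8, 9.95 and 10.2 FPKM, and the maintenance methyltransferase Dnmt1 had 44.9, 63.5, 49.0 and 68.2 FPKM. None of these passed in any comparison. Dnmt3b had 13.1, 20.3, 14.8 and 63.4 FPKM in the same order of groups, and rose with age in S/G2/M by 3.13-fold (q = 0.00308 in the authors' deposited table). At E11.5 it was 4.20-fold higher in S/G2/M than in G1 (q = 0.0102 in the authors' deposited table). Dnmt3l was listed at 0 in all groups. DNA methylation was not measured.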

How the data were processed

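RNA of 12 sorted samples was sequenced. The authors deposited 6 gene tables with 1 FPKM value per group and, per the file headers, a test statistic (a score), a p-value and a q-value per gene. CASAVA 1.4, TopHat, Cuffdiff and mm10 are named per the submitters' processing notes, and bowtie 0.12.2 and mm8 per the labels' protocols, with no roles given. Of 22808 symbols, 22591 had a deposited locus overlapping the gene of that name in GENCODE M21, so coordinates are given as mm10, counted from 1. The tables' G2 was read as S/G2/M. Depth and strandedness are not given in the sources used here, and 19 members overlap a gene on the other strand.

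Fold changes are ratios of the 2 FPKM values without a pseudocount. Calls used the authors' q under 0.05, and the design's limma or edgeR fits were not run because no values per sample were given. Of the 6 tables, 4 were used and the 2 in the other order served as alternatives. Each member of at least 5 FPKM in a group or called in a comparison was named with its values, and of 11 lists the called genes were counted. Members and lists were chosen with earlier results of these data known. The counting code was checked on simulated data with 200 changed genes whose p-values were set by hand. This checks the code and not the authors' calls. Scripts ran under Python 3.11.15 with pandas 2.3.3, numpy 2.4.6 and, for figures, matplotlib 3.10.9.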

Additional observations from a re-analysis of the deposited data

How the results depend on the processing

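The counts of called members with age were within 1.5 times of their reported values under every alternative run, with 2 and 5 members for G1 and S/G2/M at a q threshold of 0.01 and 3 and 6 at 0.085. The single call between phases at E11.5 (Ascl2) became 0 at a q threshold of 0.01, with a minimum of 5 FPKM, and without genes listed at 0. The smallest q in the phase tables was 0.0101 at E10.5 and 0.0102 at E11.5, so no gene could pass 0.01 there. With a pseudocount of 1 FPKM the median log2 fold change with age was -0.60 in place of -0.75 in G1 and -0.49 in place of -0.61 in S/G2/M. Alternatives for single genes, chosen after seeing the data, ended the calls of Nnat in G1 (q = 0.0103 in the authors' deposited table) and Grb10 in S/G2/M (q = 0.0471 in the authors' deposited table) at 0.01 and no other. Choosing the lowest row per symbol changed nothing, since each member has 1 row. No paired analysis was possible because the tables hold group values only, and for the same reason no replicate could be left out. Precision is limited by 3 samples a group and an unknown depth.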

Other observations

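Irs1, Irs2 and Igfbp5 of the insulin-like growth factor pathway, to which Igf2, Igf2r and Grb10 belong, fell with age in at least 1 phase. Of 23 genes on the list, 17 were tested in G1, where 3 fell and none rose, beside 1.45% of all genes called lower and 4.45% called in either direction. In S/G2/M 18 were tested, of which 2 fell and none rose, beside 1.93% of all genes called lower and 4.07% in either direction. Irs1, the adaptor that carries the signal from insulin and IGF receptors, fell 4.31-fold in G1, from 14.0 to 3.25 FPKM (q = 0.00273 in the authors' deposited table). In S/G2/M it fell 4.34-fold, from 11.3 to 2.60 FPKM (q = 0.00308 in the authors' deposited table). Irs2, a second adaptor of this kind, fell in G1 from 13.3 to 3.40 FPKM (q = 0.0311 in the authors' deposited table) and had 6.19 and 3.06 FPKM in S/G2/M (q = 0.480 in the authors' deposited table). The IGF-binding protein Igfbp5 fell 2.95-fold in G1 and 2.74-fold in S/G2/M, from 60.4 to 20.5 and from 51.4 to 18.8 FPKM, with q-values of 0.00489 and 0.00308 in the authors' deposited tables. The receptors themselves did not pass. Igf1r had 23.0 FPKM in E10.5 G1, 21.3 FPKM in E10.5 S/G2/M, 18.7 FPKM in E11.5 G1 and 21.7 FPKM in E11.5 S/G2/M, and Insr had 11.4, 9.47, 17.1 and 14.5 FPKM. Between phases no gene of the list was called at either age, while p before adjustment was under 0.05 for 2 genes at E10.5 and 0 at E11.5, from the authors' deposited tables.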
